A study of Mus musculus with 20 samples.

Results

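The miR-192, miR-194 and miR-215 family was followed in mouse serum through 4 mature miRNAs, mmu-miR-192-5p, mmu-miR-192-3p, mmu-miR-194-5p and mmu-miR-215-5p (the prefix for mouse is left out below), chosen by name out of 1191 names with at least 1 read. All 4 had reads in every library, and 3 of the 4 passed the filter on low counts that left 360 miRNAs for testing, while miR-192-3p did not. The series asks how circulating small RNAs differ with age between long-lived Ames dwarf mice and normal mice. Serum of female mice was sequenced in 4 groups of 5 libraries each, old dwarf (21 to 22 months), old normal (21 to 22 months), young dwarf (5 to 6 months) and young normal (5 to 6 months). Every library carries the strain label Ames dwarf with a heterogeneous genetic background, so normal and dwarf mice share that stock. Nothing in the labels states that the 5 libraries of a group came from 5 separate mice, and the p-values therefore measure the spread between these libraries, which may be partly technical.

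MicroRNAs are short RNAs that guide Argonaute proteins to messenger RNAs, and bases 2 to 8 of a miRNA, its seed, do most of the pairing with the target. Each miR-194 gene lies next to either miR-192 or miR-215, and each pair is made from a shared primary transcript. In mammals the family is abundant in liver, intestine and kidney, its genes are driven there by hepatocyte nuclear factors, and in human cells p53 raises it. Serum holds no nucleated tissue of its own, so a serum level depends on release from source cells and on clearance, and fewer source cells cannot be told apart from less RNA per cell. Ames dwarf mice lack growth hormone, prolactin and thyrotropin.

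The mature sequences are shown because miR-192-5p and miR-215-5p share a seed while miR-194-5p does not. They are RefSeq entries on GRCm38.p6, written 5′ to 3′ with the seed in capitals.
miR-192-5p: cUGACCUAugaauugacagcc
miR-215-5p: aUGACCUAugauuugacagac
miR-192-3p: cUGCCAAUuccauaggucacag
miR-194-5p: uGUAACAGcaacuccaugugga
Among the 1679 mature mouse names in the table of sequences, the seed UGACCUA belonged to 2, miR-192-5p and miR-215-5p, which are the same at 18 of 21 bases. Counted from the 5′ end, with the base of miR-192-5p first, they differ by C1A, A12U and C20A, all outside the seed. The seeds of miR-192-3p and miR-194-5p each belonged to 1 mature name.

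The hairpins show how the genes are paired, with the mature arms in capitals.
Mir192: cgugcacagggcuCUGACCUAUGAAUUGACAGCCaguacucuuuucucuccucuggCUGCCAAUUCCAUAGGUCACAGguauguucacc
Mir194-2: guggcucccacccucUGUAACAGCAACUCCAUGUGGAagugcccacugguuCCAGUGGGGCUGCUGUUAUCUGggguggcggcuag
Mir215: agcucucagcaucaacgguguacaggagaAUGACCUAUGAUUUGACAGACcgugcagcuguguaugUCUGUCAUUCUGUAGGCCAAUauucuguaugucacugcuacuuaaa
Mir194-1: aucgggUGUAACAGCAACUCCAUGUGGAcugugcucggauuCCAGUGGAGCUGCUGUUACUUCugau
Mir194-2 (chr19:6264643-6264728, + strand, GRCm38) and Mir192 (chr19:6264844-6264932, +) lie 115 bases apart, between annotated genes. Mir194-1 (chr1:185313319-185313385, +) and Mir215 (chr1:185313581-185313692, +) lie 195 bases apart, opposite an intron of Iars2, the gene of mitochondrial isoleucyl-tRNA synthetase. In GENCODE M21, Mir194-1 lies in an intron and Mir215 in an exon of 2010103J01Rik, a long noncoding RNA antisense to Iars2. Both Mir194 hairpins carry the identical miR-194-5p. The precursor row of Mir194-1 held 1142 reads and that of Mir194-2 1168 reads, the 2 rows were equal in 6 of 20 libraries, and a read that matches both hairpins stands in both rows, so what each gene contributes cannot be told apart.

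The authors' deposited hairpin report, which pools all samples, gave a read consensus for 3 members. It was the RefSeq sequence for miR-192-5p. For miR-215-5p it was 1 base longer at the 3′ end, and for miR-194-5p 1 base shorter, with the same 5′ start and therefore the same seed in all 3.
miR-215-5p consensus: aUGACCUAugauuugacagacc
miR-194-5p consensus: uGUAACAGcaacuccaugugg

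Libraries held 1343137 to 4710263 miRNA counts. The samples are labelled serum, and all 5 listed red-cell miRNAs were present. Levels are in CPM, counts scaled to a common library size with TMM factors. The red-cell sum, mostly miR-486a-5p, was 304860 to 569810 CPM in old dwarf and 390370 to 581840 CPM in old normal libraries. It was 207840 to 392470 CPM in young dwarf and 230760 to 526880 CPM in young normal libraries. The haemolysis index, the log2 ratio of the red-cell miRNA miR-451a to miR-23a-3p, averaged 5.38 ± 0.44 in old dwarf, 4.30 ± 0.70 in old normal, 5.40 ± 0.43 in young dwarf libraries and 5.45 ± 0.61 in young normal libraries (SD, n = 5 each). Old normal libraries thus had the lowest mean index, while both ends of the range of their red-cell sum were the highest of any group. Whether the index follows haemolysis here was not tested. Replicates 4 and 5 of old dwarf and 3 and 5 of young dwarf mice stood apart in miR-802-5p, a miRNA of liver and pancreas, at 170.6, 105.8, 148.2 and 114.5 CPM, against 6.70 to 28.2 CPM in the other 16 libraries. Several results that rest on these 4 libraries are given below with and without them, an alternative chosen after the values were seen. For miR-192-3p, the other arms of the hairpins, the ratios within a library and the medians of the marker lists, no value without them is given. A value that is given once may therefore still rest on them.

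The family split into abundant and scarce members. By mean CPM, mmu-miR-192-5p stood at rank 14 with 445242 reads over the 20 libraries, mmu-miR-215-5p at rank 19 with 284533 reads, mmu-miR-194-5p at rank 199 with 1168 reads and mmu-miR-192-3p at rank 404 with 84 reads. The 4 members together took 0.659% to 3.82% of the counts of a library, with a median of 1.39%. For each 1000 reads of miR-192-5p, a library held 128 to 1412 reads of miR-215-5p (median 689), 1.01 to 5.31 reads of miR-194-5p (median 2.67) and 0.0417 to 0.452 reads of miR-192-3p (median 0.183). Reads of different miRNAs need not be recovered equally well in a small RNA library, so these ratios compare libraries and not molecules.

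miR-192-5p, the most abundant member, stood at 4049, 10038, 11966, 20306 and 20457 CPM in old dwarf replicates 1 to 5. Old normal libraries held 5632, 12445, 11279, 8564 and 8232 CPM. The first old dwarf library was thus below every old normal library, and the last 2 were above every one.
Young dwarf replicates 1 to 5 held 10003, 7877, 22348, 5540 and 14535 CPM of miR-192-5p, and young normal libraries 5758, 2994, 5925, 5458 and 3122 CPM. All young dwarf libraries except replicate 4 lay above all young normal libraries. The group means were 13363 ± 7041 in old dwarf, 12060 ± 6637 in young dwarf, 9230 ± 2689 in old normal and 4651 ± 1465 CPM in young normal serum (SD, n = 5 each). In that order, the ranges of neighbouring groups overlapped in each case.

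miR-215-5p, which shares the seed of miR-192-5p, stood at 2712, 10171, 11406, 3633 and 3291 CPM in old dwarf replicates 1 to 5, against 3581, 12624, 5783, 7563 and 8146 CPM in old normal libraries. Young dwarf libraries held 13627, 11119, 2866, 4288 and 9242 CPM, against 4074, 1557, 2373, 4062 and 1850 CPM in young normal libraries. Old dwarf replicates 4 and 5 and young dwarf replicate 3, the 3 libraries highest in miR-192-5p, lay within the young normal range of miR-215-5p. The group means were 6243 ± 4186 in old dwarf, 7539 ± 3354 in old normal, 8228 ± 4550 in young dwarf libraries and 2783 ± 1209 CPM in young normal serum (SD, n = 5 each). Young dwarf serum thus came highest, then old normal, old dwarf and young normal serum, again with overlapping neighbours.

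miR-194-5p, the member made from both loci, stood at 19.4, 14.3, 13.5, 90.7 and 34.8 CPM in old dwarf replicates 1 to 5, against 15.1, 12.5, 23.8, 17.98 and 16.8 CPM in old normal libraries. Young dwarf libraries held 28.5, 24.7, 59.5, 20.7 and 37.0 CPM, against 16.5, 13.4, 24.3, 11.3 and 16.6 CPM in young normal libraries. Old dwarf replicate 4 stood far above all other libraries of its group, and 4 of 5 young dwarf libraries lay above every young normal one. The means were 34.6 ± 32.6 in old dwarf, 34.1 ± 15.4 in young dwarf, 17.3 ± 4.22 in old normal and 16.4 ± 4.96 CPM in young normal serum (SD, n = 5 each). A library held 14 to 161 reads of it.

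miR-192-3p, the other arm of the Mir192 hairpin, was counted 1, 3, 4, 9 and 8 times in old dwarf libraries, 2, 1, 3, 3 and 1 times in old normal, 2, 4, 15, 4 and 6 times in young dwarf libraries and 1, 2, 6, 5 and 4 times in young normal libraries. The largest counts again fell in old dwarf replicates 4 and 5 and young dwarf replicate 3. At this depth its level is known only roughly, and intervals from so few counts would cover counting error only. Means were 2.80 ± 2.29 in old dwarf, 1.01 ± 0.469 in old normal, 2.33 ± 1.87 in young dwarf libraries and 1.20 ± 0.536 CPM in young normal serum (SD, n = 5 each).

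**Figure D1:**
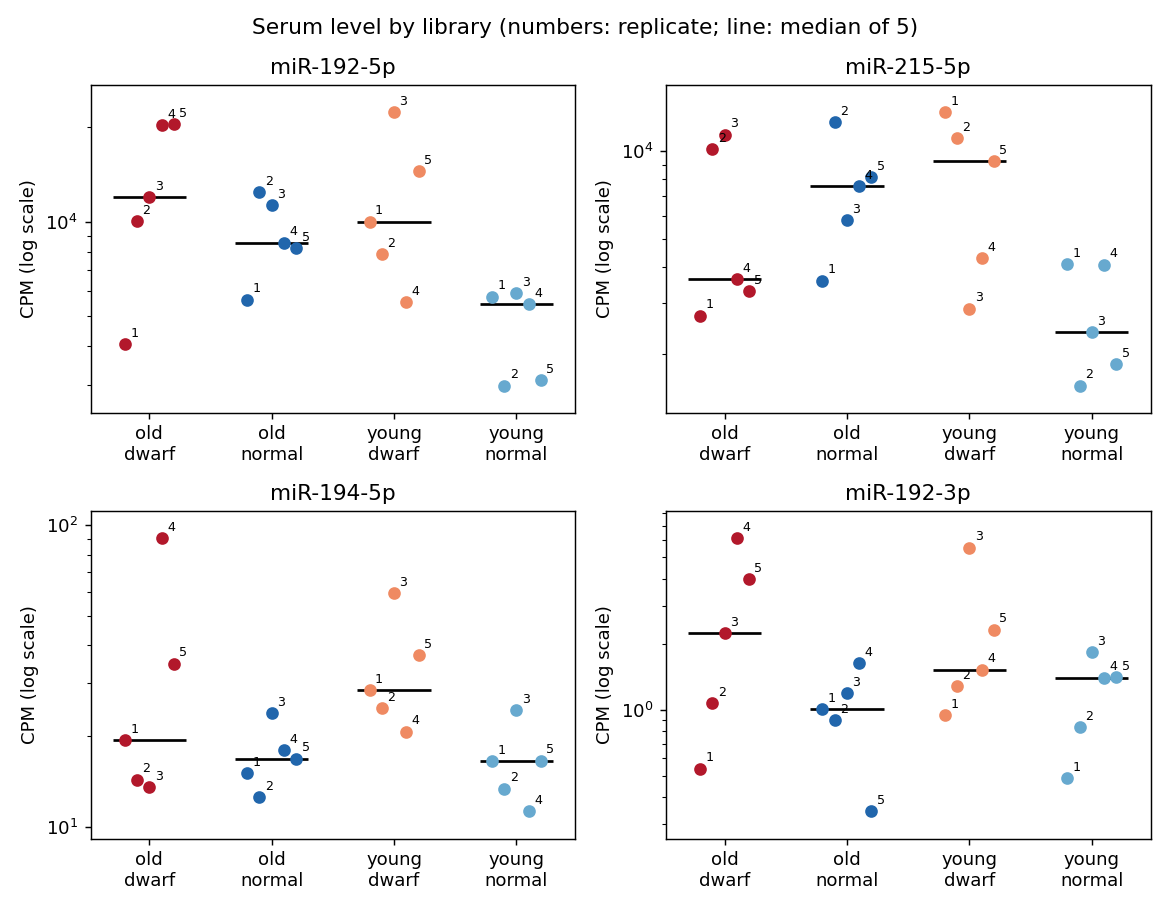
Each point is a library (number: replicate), with its level in CPM on a log axis for the 4 members, and the line is the median of 5 libraries. Old dwarf replicates 4 and 5 and young dwarf replicate 3 are highest in miR-192-5p, at 20306 to 22348 CPM, and stand at 2866 to 3633 CPM in miR-215-5p.

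Averaged over both ages, miR-192-5p and miR-194-5p were higher in dwarf than in normal serum. The 10 dwarf libraries held 4049 to 22348 CPM of miR-192-5p with a median of 11002 CPM, and the 10 normal libraries 2994 to 12445 CPM with a median of 5841 CPM. The ranges overlapped. miR-192-5p rose 1.94-fold (log2 0.95 ± 0.28 SE, edgeR adjusted p 0.0213) in this comparison. miR-194-5p had a range of 13.5 to 90.7 CPM and a median of 26.6 CPM in dwarf libraries, against 11.3 to 24.3 CPM and a median of 16.5 CPM in normal libraries. It rose 2.02-fold (log2 1.02 ± 0.32, edgeR adjusted p 0.0259).
miR-215-5p did not pass, at log2 0.65 ± 0.33 (edgeR adjusted p 0.147, 95% interval -0.05 to 1.34). Its dwarf libraries ranged from 2712 to 13627 CPM with a median of 6765 CPM, and its normal libraries from 1557 to 12624 CPM with a median of 4068 CPM. So 2 of the 3 tested members were called higher, where 15.3% of the 360 miRNAs were called higher (55 higher and 45 lower, and 65 higher and 28 lower with library totals in place of TMM factors). The median log2 fold change of the 3 members was 0.95, and that of all 360 was -0.04.

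These genotype calls were lost without the libraries high in miR-802-5p. Without the 4 libraries, miR-192-5p was log2 0.35 ± 0.24 (edgeR adjusted p 0.416) and miR-194-5p log2 0.26 ± 0.21 (0.523), while miR-215-5p was log2 0.97 ± 0.33 (0.163). In that fit 0 of 373 miRNAs were called, while 64 had an unadjusted p under 0.05. miR-802-5p went with both members over the libraries, so leaving these 4 out also takes away high values of miR-192-5p and miR-194-5p. All 4 are dwarf libraries, so a smaller difference was built into that choice, and the fit also compares fewer dwarf libraries. Single libraries also ended the calls. Without old dwarf replicate 4, miR-192-5p was log2 0.81 (edgeR adjusted p 0.0558) and miR-194-5p log2 0.61 (0.0784). Without young dwarf replicate 3 they were log2 0.75 (0.0643) and 0.84 (0.0673), and without old dwarf replicate 5 miR-192-5p was log2 0.82 (0.0562). With the haemolysis index as a covariate, the values were log2 0.93 for miR-192-5p (edgeR adjusted p 0.103) and 0.60 for miR-194-5p (0.262).

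In young mice, 3 of 3 tested members lay higher in dwarf serum, where 45.3% of the 360 miRNAs did. Of these members 0 passed, where 0% of all miRNAs were called by edgeR, 28 had an unadjusted p under 0.05 and DESeq2 called 6. miR-215-5p had the largest difference of the 3, log2 1.56 ± 0.48 (edgeR adjusted p 0.246), with a mean of 8228 CPM in young dwarf libraries and 2783 CPM in young normal serum. miR-192-5p differed by log2 1.37 ± 0.40 (0.206) and miR-194-5p by log2 1.05 ± 0.45 (0.460). By unadjusted p, miR-192-5p stood at rank 5 and miR-215-5p at rank 6 of 360. In DESeq2 both were among the 6 called, at log2 1.43 (adjusted p 0.0329) and 1.61 (0.0332). Without the 4 libraries high in miR-802-5p, 0 were called in edgeR with 12 at an unadjusted p under 0.05, and the differences were log2 0.76 for miR-192-5p (adjusted p 0.991), 0.61 for miR-194-5p (0.991) and 1.78 for miR-215-5p (0.317). Young dwarf replicate 3 is the library in which the 2 seed-sharing members part most, with 22348 CPM of miR-192-5p and 2866 CPM of miR-215-5p.

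In old mice, none of the 3 members passed between dwarf and normal serum, although 26.4% of the 360 miRNAs were called. miR-194-5p differed by log2 0.98 ± 0.45 (edgeR adjusted p 0.0994), miR-192-5p by log2 0.53 ± 0.40 (0.307) and miR-215-5p by log2 -0.27 ± 0.47 (0.673). DESeq2 called miR-194-5p (log2 1.13, adjusted p 0.0410), and edgeR called it without old dwarf replicate 2 (log2 1.18, 0.0418) or 3 (log2 1.19, 0.0435). Without old dwarf replicate 4 it was log2 0.19 (0.735). Without the 4 libraries high in miR-802-5p miR-194-5p stood at log2 -0.10 ± 0.30 (edgeR adjusted p 0.889). The other 2 members then stood at log2 -0.05 (miR-192-5p, 0.954) and 0.15 (miR-215-5p, 0.889), and 14 miRNAs were called in place of 95. With the haemolysis index as a covariate, which itself averaged 5.38 in old dwarf libraries and 4.30 in old normal libraries, 0 miRNAs were called, 66 had an unadjusted p under 0.05, miR-194-5p stood at log2 0.088 (edgeR adjusted p 0.953) and miR-215-5p at log2 0.62.

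With age in normal mice, miR-215-5p rose 2.71-fold (log2 1.44 ± 0.48, edgeR adjusted p 0.0475). Of the 5 old normal libraries, 4 lay above every young normal library, and old normal replicate 1, at 3581 CPM, lay within the young normal range. Of the 360 miRNAs, 15.6% were called in this comparison, 18 higher and 38 lower (9 higher and 97 lower with library totals, 33 higher and 36 lower with upper-quartile factors), so 1 of 3 tested members was called higher where 5% of all miRNAs were. miR-192-5p had a mean of 9230 CPM in old normal and 4651 CPM in young normal serum, and did not pass (log2 0.99 ± 0.40, edgeR adjusted p 0.0824). miR-194-5p averaged 17.3 CPM in old normal and 16.4 CPM in young normal serum, a difference of log2 0.08 ± 0.45 (edgeR adjusted p 0.918, 95% interval -0.86 to 1.02).
The call of miR-215-5p lay close to the threshold, and was lost in 12 of 20 fits with 1 library left out, at log2 1.16 to 1.51 and an edgeR adjusted p of up to 0.134. Those libraries were young normal replicates 2, 3 and 5, old normal replicates 2, 3, 4 and 5, replicates 2, 4 and 5 of young dwarf mice and replicates 4 and 5 of old dwarf mice. Leaving out the 4 libraries high in miR-802-5p, none of which is normal, gave log2 1.39 (adjusted p 0.0409), and miR-192-5p then also passed (log2 0.97, 0.0409). The haemolysis index averaged 4.30 in old normal and 5.45 in young normal libraries, and with it as a covariate miR-215-5p stood at log2 0.36 (edgeR adjusted p 0.818), miR-194-5p at log2 0.86 (0.423), and 1 miRNA was called. The call was also lost with names of identical counts counted once (log2 1.38, 0.0528) and with the replicate number as a block (log2 1.36, 0.0901).

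With age in dwarf mice, 0 of 3 tested members passed, where 0.556% of all miRNAs were called by edgeR. miR-215-5p stood at a mean of 6243 CPM in old dwarf libraries and 8228 CPM in young dwarf serum (log2 -0.40 ± 0.47, edgeR adjusted p 0.997, unadjusted 0.409). miR-192-5p differed by log2 0.15 ± 0.40 (95% interval -0.68 to 0.98) and miR-194-5p by log2 0.01 ± 0.44 (-0.91 to 0.93). Changes inside these intervals are not excluded at this spread. The intervals are not adjusted for the number of miRNAs and are not a limit of detection. The signs of miR-194-5p and miR-192-5p turned under settings listed in the closing section.

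The age difference of miR-215-5p was log2 -0.40 in dwarf and 1.44 in normal mice. The dwarf minus the normal age difference was log2 -1.84 ± 0.67. It did not pass after adjustment (edgeR adjusted p 0.186, unadjusted p 0.0129, 95% interval -3.24 to -0.43), in a comparison where 0.556% of the 360 miRNAs were called. For miR-192-5p this difference was log2 -0.84 ± 0.56 (0.489) and for miR-194-5p log2 -0.07 ± 0.63 (0.948). With the haemolysis index as a covariate the order changed, to log2 -0.75 for miR-215-5p (edgeR adjusted p 0.791), -0.89 for miR-192-5p (0.755) and -1.02 for miR-194-5p (0.752). Without the 4 libraries high in miR-802-5p the difference was log2 -1.63 ± 0.68 for miR-215-5p (edgeR adjusted p 0.576), -0.80 for miR-192-5p (0.671) and -0.70 for miR-194-5p (0.673). Averaged over both genotypes, old against young serum, 0 of 3 passed (8.89% of all miRNAs called), with log2 0.57 for miR-192-5p (edgeR adjusted p 0.177), 0.52 for miR-215-5p (0.276) and 0.04 for miR-194-5p (0.912). The comparisons share libraries, so their values are set side by side only.

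**Figure D2:**
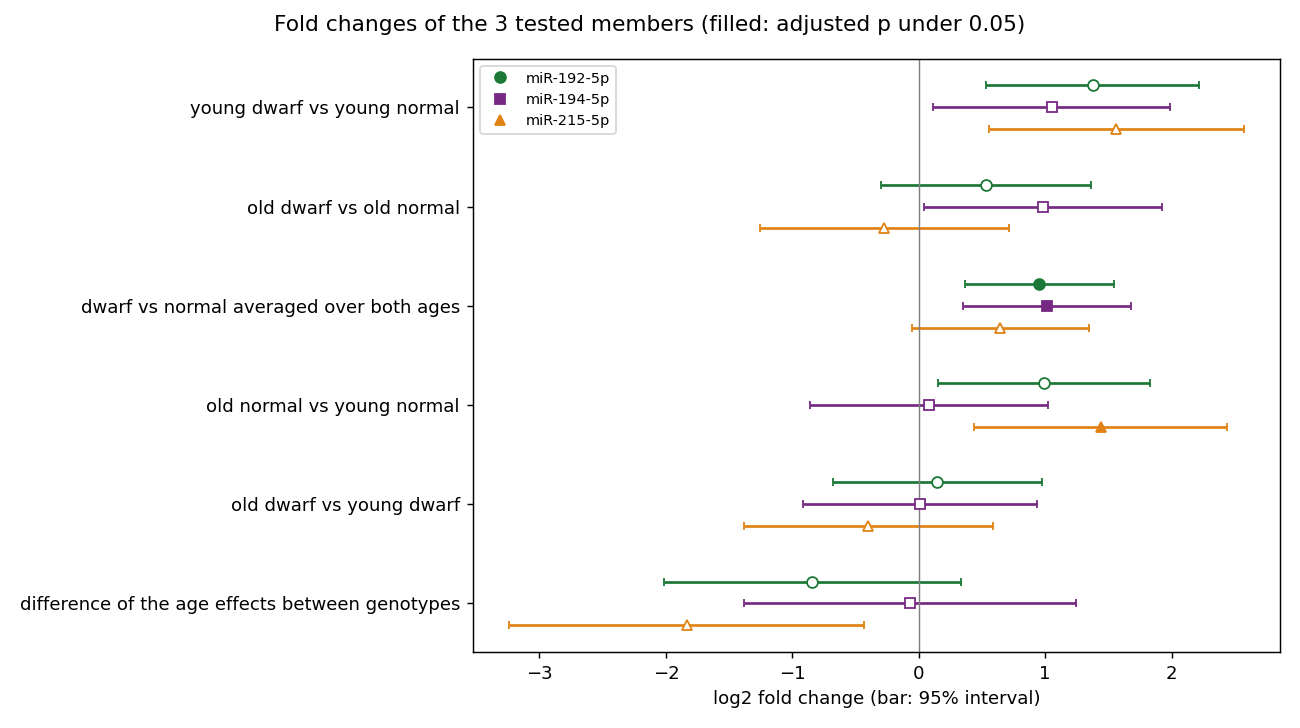
Points are edgeR log2 fold changes of the 3 tested members, first-named over second-named group, the bottom row being the dwarf minus the normal age effect, with bars for the 95% interval. The 3 filled points, with an adjusted p under 0.05, are miR-192-5p (0.95) and miR-194-5p (1.02) for dwarf against normal serum and miR-215-5p (1.44) for old against young normal serum.

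miR-192-3p entered no test with the filter on. Without that filter, its lowest adjusted p was 0.117 in edgeR, for dwarf against normal serum over both ages (log2 1.17 ± 0.47), from 56 reads in 10 dwarf libraries and 28 reads in 10 normal libraries. Its old dwarf against old normal difference was log2 1.44 ± 0.70 (0.226). No comparison of miR-192-3p passed.

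The other arms of the hairpins were scarcer than their partners. miR-215-3p, the passenger arm of Mir215, had 3356 reads, and the 2 Mir194 passenger arms had 25 (miR-194-1-3p) and 15 (miR-194-2-3p). miR-215-3p held 17.2, 94.3, 98.0, 15.0 and 12.9 CPM in old dwarf libraries, 27.7, 192.6, 59.2, 106.8 and 108 CPM in old normal, 223.9, 118, 12.6, 48.3 and 101.3 CPM in young dwarf libraries and 78.1, 23.9, 36.02, 67.3 and 25.7 CPM in young normal libraries. Its lowest values fell in the 3 libraries that were highest in miR-192-5p. Those libraries also held the fewest reads of miR-215-3p for each 1000 of miR-215-5p, where the range over all libraries was 3.93 to 19.2. miR-215-3p passed in no comparison, at log2 -1.05 ± 0.69 for old dwarf against old normal (edgeR adjusted p 0.247), 1.13 ± 0.69 for young dwarf against young normal (0.670) and 1.09 ± 0.69 for old normal against young normal serum (0.236). For the difference of age effects it was log2 -2.17 ± 0.98 (edgeR adjusted p 0.277).

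Within a library, miR-215-5p and miR-192-5p usually had read counts of a like size. The log2 ratio of their counts, miR-215-5p over miR-192-5p, was -0.58, 0.02, -0.07, -2.48 and -2.64 in old dwarf replicates 1 to 5 and -0.65, 0.02, -0.96, -0.18 and -0.02 in old normal libraries. It was 0.45, 0.50, -2.96, -0.37 and -0.65 in young dwarf libraries and -0.50, -0.94, -1.32, -0.43 and -0.75 in young normal libraries. Old dwarf replicates 4 and 5 and young dwarf replicate 3 thus lay below all 17 others. The group means were -1.15 ± 1.31 in old dwarf libraries and -0.36 ± 0.43 in old normal serum, a difference of -0.79 (exact permutation test, 2-sided p 0.325, adjusted p 0.651), and -0.61 ± 1.41 in young dwarf libraries and -0.79 ± 0.36 in young normal serum, a difference of 0.18 (exact p 0.865, adjusted p 0.865), with SD and n = 5 each. The difference in young mice was 0.77 without young dwarf replicate 3, and turned sign without young dwarf replicate 1 (-0.083) or 2 (-0.096).

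The scarce member of the pair also varied against miR-192-5p. The log2 ratio of miR-194-5p to miR-192-5p averaged -8.99 ± 0.51 in old normal and -8.10 ± 0.55 in young normal serum (SD, n = 5 each), a difference of -0.90 (exact permutation test, 2-sided p 0.0317, adjusted p 0.317 over the 16 ratio tests). The ratio of the 2 arms of Mir192, miR-192-3p to miR-192-5p, averaged -12.6 ± 0.696 in old normal and -11.5 ± 0.648 in young normal serum, a difference of -1.06 (exact p 0.0397, adjusted p 0.317). Neither passed, nor did any of the other 14 ratio tests, and 5 libraries against 5 cannot give an exact 2-sided p below 0.00794.

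**Figure D3:**
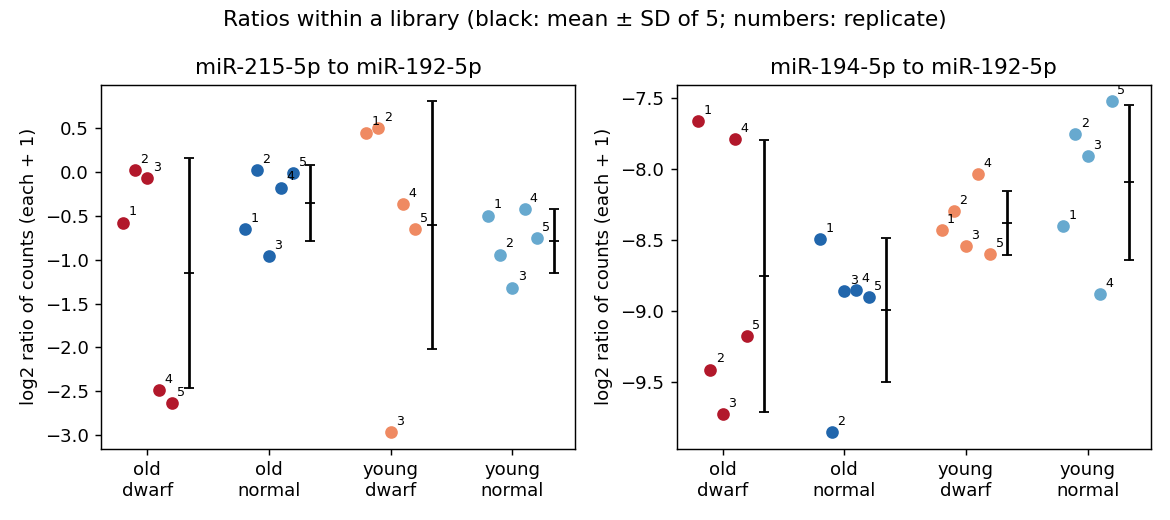
Points are libraries (number: replicate) and show the log2 ratio of counts, each plus 1, of miR-215-5p (left) and miR-194-5p (right) to miR-192-5p, and the black bars are the mean and SD of 5. On the left, old dwarf replicates 4 and 5 and young dwarf replicate 3 lie at -2.48 to -2.96, and the other 17 libraries at -1.32 to 0.50.

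Since miR-192-5p and miR-215-5p share a seed, their levels were also summed. The summed level was 6761 to 23939 CPM with a median of 23372 CPM in old dwarf, 9212 to 25070 CPM with a median of 16378 CPM in old normal, 9828 to 25213 CPM with a median of 23630 CPM in young dwarf libraries and 4550 to 9831 CPM with a median of 8298 CPM in young normal serum. The highest young normal library, at 9831 CPM, was just above the lowest young dwarf library, and only old dwarf replicate 1 and old normal replicate 1 among the old libraries lay below it. miR-192-5p made up 41.5% to 88.6% of the sum, and the 3 libraries with the largest share, 84.8% to 88.6%, were old dwarf replicates 4 and 5 and young dwarf replicate 3. No test was made on the sum.

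The members were set against miR-122-5p, the hepatocyte miRNA, over the 20 libraries. miR-122-5p stood at 12.9, 3.94, 9.58, 347.3 and 117.3 CPM in old dwarf libraries, 13.6, 6.27, 37.0, 10.4 and 4.81 CPM in old normal, 5.22, 1.60, 204.4, 16.1 and 99.4 CPM in young dwarf libraries and 17.5, 6.28, 69.6, 5.91 and 5.99 CPM in young normal libraries. It was highest in the same 4 dwarf libraries as miR-802-5p, and young normal replicate 3 came next.
On the log2 CPM scale, miR-194-5p went with miR-122-5p at Pearson r 0.802 (permutation p 5e-05, adjusted p 0.0006) and Spearman rho 0.567 (p 0.00998, adjusted 0.0299). The r was 0.607 without the 2 libraries farthest from the median of miR-194-5p and 0.845 with group means subtracted. miR-192-5p went with miR-122-5p at r 0.587 (permutation p 0.00648, adjusted 0.0259) and rho 0.424 (p 0.0645, adjusted 0.09), 0.569 without its 2 farthest libraries and 0.640 with group means subtracted. miR-215-5p had r -0.353 (permutation p 0.13, adjusted 0.156) and rho -0.432 (p 0.06, adjusted 0.09), -0.272 without its 2 farthest libraries and -0.525 with group means subtracted, which did not pass. Over the 16 libraries without the 4 high in miR-802-5p, r was 0.262 for miR-194-5p, -0.0625 for miR-192-5p and -0.418 for miR-215-5p. Within groups, each over 5 libraries and as a description, r of miR-194-5p with miR-122-5p was 0.956 in old dwarf, 0.753 in old normal, 0.791 in young dwarf libraries and 0.879 in young normal libraries. The normal groups hold none of those 4, but in each of them replicate 3 was the highest library in both miRNAs. No r was computed without it. For miR-192-5p the within-group r with miR-122-5p was 0.667 in old dwarf, 0.0761 in old normal, 0.750 in young dwarf libraries and 0.646 in young normal libraries, and for miR-215-5p -0.631, -0.562, -0.670 and 0.133 in the same order of groups.

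Among the members, miR-192-5p and miR-194-5p went together at r 0.656 (permutation p 0.00121, adjusted 0.00726) and rho 0.516 (p 0.0217, adjusted 0.0521), 0.656 without 2 libraries and 0.601 with group means subtracted. Within groups r was 0.589 in old dwarf, 0.109 in old normal, 0.985 in young dwarf libraries and 0.290 in young normal libraries, each over 5 libraries and given as a description. miR-192-5p and miR-215-5p, despite the shared seed, had r 0.444 (permutation p 0.0502, adjusted 0.09) and rho 0.418 (p 0.0675, adjusted 0.09), which was 0.177 without 2 libraries and 0.149 with group means subtracted. Within groups that r was 0.0848 in old dwarf libraries and -0.304 in young dwarf libraries, against 0.771 in old normal and 0.827 in young normal libraries, a contrast that was not tested. miR-194-5p and miR-215-5p had r -0.111 (permutation p 0.646, adjusted 0.705) and rho -0.0647 (p 0.788, adjusted 0.788), 0.102 without 2 libraries and -0.464 with group means subtracted. Over the 16 libraries without the 4 high in miR-802-5p, r was 0.127 between miR-192-5p and miR-194-5p, 0.912 between miR-192-5p and miR-215-5p and 0.113 between miR-194-5p and miR-215-5p. The first r was thus lower and the second higher outside those 4 libraries, a description of libraries chosen after their values were seen. These are 6 relations, with p adjusted over their 12 values, and the points of each come from the same libraries.

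**Figure D4:**
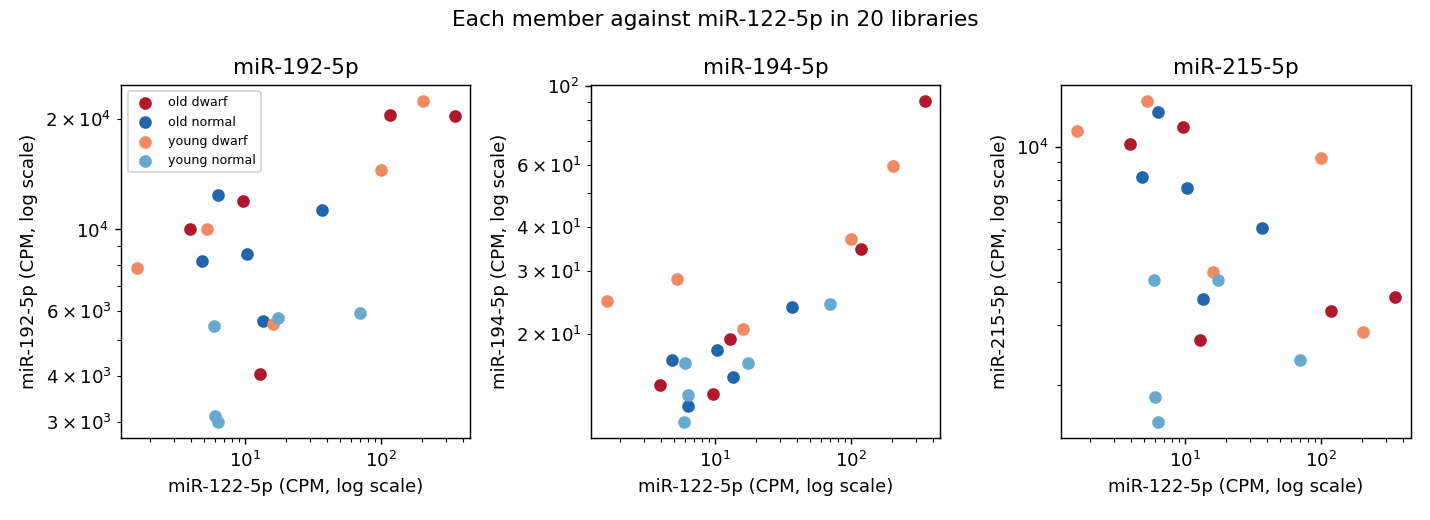
Each point is 1 of 20 libraries, with miR-122-5p on the x axis and a member on the y axis, both in CPM on log axes. Over 20 libraries r was 0.802 for miR-194-5p, 0.587 for miR-192-5p and -0.353 for miR-215-5p, and the 4 dwarf libraries high in miR-122-5p, at 99.4 to 347.3 CPM, lie at the right.

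The miRNAs most like miR-192-5p in log2 CPM over 20 libraries were looked up among 356, with the members and the other arms of their hairpins left out. They were miR-802-5p (r 0.917), miR-802-3p (0.7102), miR-6240 (0.639), miR-122-5p (0.587) and miR-2137 (0.553). With group means subtracted they were miR-802-5p (0.912), miR-802-3p (0.686), miR-22-3p (0.686), miR-122-5p (0.640) and miR-212-3p (0.633). These r values are descriptions, since the libraries and their scaling are shared. Without the 4 libraries high in miR-802-5p, its r with miR-192-5p was 0.884. The 2 miR-802 arms come from 1 hairpin. miR-802-5p stood at 11.8 to 170.6 CPM with a median of 27.4 CPM in dwarf libraries and 6.70 to 27.4 CPM with a median of 16.1 CPM in normal libraries. It rose in dwarf serum averaged over both ages (log2 2.13 ± 0.49, edgeR adjusted p 0.00641). It stood at log2 0.56 ± 0.28 (adjusted p 0.316) without the 4 libraries that it was itself used to pick, and with the haemolysis index as a covariate at log2 1.82 ± 0.60 (0.0729).

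The neighbours of the other 2 members were looked up after the values were seen, with the members and the other arms of their hairpins again left out. For miR-194-5p they began with miR-802-3p (r 0.856), miR-802-5p (0.845) and miR-122-5p (0.802), and its r with miR-802-5p was 0.394 without the 4 libraries high in that miRNA. For miR-215-5p they were different names, beginning with miR-676-3p (0.798), miR-339-5p (0.792) and miR-181c-3p (0.789), and with group means subtracted they were miR-676-3p (0.914), miR-128-3p (0.908), miR-361-3p (0.900), miR-423-5p (0.883) and miR-375-3p (0.881).

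Of the 5 listed hepatocyte miRNAs, 4 had reads and miR-885-5p had none in any library, and 3 were tested. The summed level of the 4 with reads, mostly miR-148a-3p, was 3178 to 5561 CPM in old dwarf, 2710 to 6124 CPM in old normal, 3835 to 9263 CPM in young dwarf libraries and 2303 to 4691 CPM in young normal libraries. Of the 3 tested, 0 passed in any of the 4 pairwise comparisons, and their median log2 fold change was 1.73 for old dwarf against old normal and 1.63 for young dwarf against young normal serum, beside -0.06 and -0.04 over all miRNAs. In that order the 3 stood at 2.74 and 1.63 (miR-122-5p), 1.73 and 2.54 (miR-802-5p) and 0.29 and 0.67 (miR-148a-3p). The medians are thus values of miR-802-5p and miR-122-5p, both highest in the same 4 dwarf libraries. No median was computed without those 4. All 8 listed miRNAs of intestinal and other epithelium had reads and were tested. They summed to 786 to 3017 CPM in old dwarf, 1215 to 4725 CPM in old normal, 960 to 1977 CPM in young dwarf libraries and 1041 to 2099 CPM in young normal libraries, and 0 of 8 passed in the 4 comparisons. All 5 listed kidney tubule miRNAs had reads and 4 were tested. The 5 together, mostly miR-30a-5p, miR-10a-5p and miR-10b-5p, summed to 23479 to 48642 CPM in old dwarf, 18665 to 36670 CPM in old normal, 20673 to 40094 CPM in young dwarf libraries and 15647 to 29486 CPM in young normal libraries. In the 4 comparisons 1 of the 4 tested passed once, miR-30a-5p, which was higher in the old dwarf group than in the old normal group (log2 0.77, edgeR adjusted p 0.0135). It did not pass without the 4 libraries high in miR-802-5p (log2 0.57, 0.193) or with the haemolysis index as a covariate (log2 0.27, 0.514). The part of these source tissues in the family's differences was not tested.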

How the data were processed

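RNA was extracted from serum with a miRNeasy column kit and libraries were made with the TruSeq Small RNA kit, per the labels' protocols. The submitters' processing notes name the mm10 (GRCm38) build, Bowtie 0.12.8, edgeR and bedtools, with no role for each. The main deposited table holds whole-number read counts and RPM values made by the authors, 1 row per mature name and precursor, per the file headers; the RPM values were not tested. The authors' deposited hairpin report gives read counts pooled over all samples, with no value per library. The row with the highest total was kept for each of 1915 names, and 0 sample columns were left unused.

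The quasi-likelihood test (edgeR 4.0.16 in R 4.3.3, with limma 3.58.1) was run on the counts of all 20 libraries, with a coefficient for each of 4 groups, TMM factors and the default low-count filter of edgeR (minimum count 10). Benjamini-Hochberg adjustment ran over 360 miRNAs within each of 7 comparisons, and an adjusted p under 0.05 is a call. The standard error is the log2 fold change divided by the square root of F. The common biological coefficient of variation was 47.5%. Library totals of 1343137 to 4710263 set the counting precision. Ratios within a library used counts plus 1 and 2-sided exact permutation tests adjusted over 16 tests. Correlations used log2 CPM and 100000 permutations. The scripts were tested on simulated data. The alternatives were other size factors, no filter, DESeq2 1.42.0, summed precursor rows, identical names counted once, a replicate block, the haemolysis index as a covariate each library left out, counts plus 0.5 in the ratios and, chosen after seeing the data, the 4 libraries highest in miR-802-5p left out.

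The members, the marker lists and the rule for naming miRNAs were chosen with earlier results of these data known. The rule named the members, the other arms of their hairpins and the 5 miRNAs outside these closest to miR-192-5p, with and without group means. It also named up to 4 members of each of 7 marker lists by level, and the 2 miRNAs of the haemolysis index. The lists were hepatocyte, epithelium, kidney tubule, red cell, platelet and myeloid, lymphocyte, and muscle.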

Additional observations from a re-analysis of the deposited data

Results flagged for a closer look

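miR-194-5p in old dwarf replicate 4, at 90.7 CPM, stood apart from the other old dwarf libraries, of which the nearest held 34.8 CPM. Its gap was 0.725 of the range of the group, above the 95% critical value of 0.71 in Dixon's test for 5 samples. Of 32 groups of values checked this was the 1 past that value, and chance flags about 1 in 20. The same library held 347.3 CPM of miR-122-5p and 170.6 CPM of miR-802-5p, the highest of all 20 libraries in both, and the part of liver RNA in this value was not tested.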

How the results depend on the processing

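Values below are log2 fold changes from edgeR unless another tool is named. Over all alternatives 870 values kept their direction and side of the threshold (or, for counts of calls, stayed within 1.5 times), while 52 turned sign, 24 lost the threshold, 7 gained it and 79 counts of calls moved further. DESeq2 called 6 miRNAs for young dwarf against young normal, 117 for old normal against young normal, 20 for the difference of age effects and 61 for old against young over both genotypes (edgeR 0, 56, 2 and 32). It called miR-192-5p (1.43) and miR-215-5p (1.61) in young mice and miR-194-5p (1.13) in old mice. With the haemolysis index as a covariate the calls numbered 1 (young dwarf against young normal), 0 (old dwarf against old normal), 1 (old normal against young normal), 0 (difference of age effects), 16 (dwarf against normal over both ages) and 0 (old against young over both genotypes). miR-192-5p (0.93) and miR-194-5p (0.60) for dwarf against normal and miR-215-5p (0.36) for old normal against young normal then missed the threshold. miR-215-5p turned to 0.62 for old dwarf against old normal and -0.013 for old against young, and miR-194-5p to -0.16 for old dwarf against young dwarf. Without the 4 libraries highest in miR-802-5p, a setting chosen after seeing the data, the calls numbered 14 for old dwarf against old normal, 1 for old dwarf against young dwarf and 0 for the difference of age effects, dwarf against normal and old against young. There miR-192-5p (0.35) and miR-194-5p (0.26) missed the threshold for dwarf against normal, and miR-192-5p (0.97) passed for old normal against young normal. The signs turned to -0.047, -0.096 and 0.15 for miR-192-5p, miR-194-5p and miR-215-5p in old dwarf against old normal, and to -0.62 and -0.26 for miR-194-5p in old dwarf against young dwarf and old against young. Library totals shifted the median of all miRNAs to between -0.42 (old normal against young normal) and 0.23 (old dwarf against old normal), and upper-quartile factors to between -0.11 and 0.16, against -0.06 to 0.03 with TMM. With library totals the calls numbered 106 for old normal against young normal, 108 for old against young and 0 for old dwarf against young dwarf and the difference of age effects, and miR-215-5p passed for dwarf against normal (0.83). There miR-194-5p turned to -0.39 (old normal against young normal), -0.34 (old dwarf against young dwarf), 0.045 (difference of age effects) and -0.37 (old against young), and miR-192-5p to -0.32 (old dwarf against young dwarf). The small difference of age effects of miR-194-5p, -0.07, was 0.034 in DESeq2 and 0.036 with RLE factors, where 1 miRNA was called in that comparison (0 with upper-quartile factors or summed precursor rows). With no filter, 1 miRNA was called in young mice and 13 for the difference of age effects, and miR-194-5p stood at -0.038, -0.073 and -0.056 for old normal against young normal, old dwarf against young dwarf and old against young. With summed precursor rows, miR-194-5p stood at -0.019 for old dwarf against young dwarf, with 1 call. With identical names counted once, miR-215-5p missed the threshold for old normal against young normal (1.38).

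Libraries of the same number in 2 groups did not deviate together (mean r -0.00992 over 30 pairs, against 0.0103 over 120 pairs of other numbers), and 3 of 20 libraries correlated best with their own number. With the replicate block, miR-215-5p stood at 1.36 for old normal against young normal (adjusted p 0.0901), miR-194-5p at -0.094 for old dwarf against young dwarf and -0.027 for old against young, and the calls numbered 0, 0 and 1 for old dwarf against young dwarf, the difference of age effects and old against young. No paired analysis was made for the ratio tests, since nothing in these values shows that equal numbers pair libraries.

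With each library left out, the calls ran from 29 to 123 for old normal against young normal, 51 to 143 for old dwarf against old normal, 54 to 145 for dwarf against normal, 1 to 69 for old against young, 0 to 2 for old dwarf against young dwarf and 0 to 3 for the difference of age effects. miR-215-5p ran from 1.16 to 1.62 for old normal against young normal, and for dwarf against normal miR-192-5p ran from 0.75 to 1.07 and miR-194-5p from 0.61 to 1.12. miR-192-5p ran from -0.056 to 0.49 for old dwarf against young dwarf. miR-194-5p ran from 0.19 to 1.19 for old dwarf against old normal, -0.069 to 0.26 for old normal against young normal, -0.75 to 0.28 for old dwarf against young dwarf, -0.83 to 0.20 for the difference of age effects and -0.33 to 0.18 for old against young. Differences of log2 ratios that turned sign ran from -0.074 to 0.25 (miR-192-3p to miR-192-5p, old dwarf against young dwarf), -0.10 to 0.77 (miR-215-5p to miR-192-5p, young dwarf against young normal), -0.17 to 1.14 and -1.09 to 0.30 (miR-192-5p to miR-122-5p, young dwarf against young normal and old dwarf against young dwarf) and -0.036 to 0.48 (miR-194-5p to miR-192-5p, old dwarf against old normal). The causes of these shifts were not tested. miR-192-3p, with 84 reads, was tested with no filter only.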

Other observations

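Some markers of blood cells differed between old normal libraries and those of old dwarf or young normal mice, in comparisons the family also enters. All 3 lymphocyte miRNAs (miR-150-5p, miR-342-3p and miR-155-5p) fell in old dwarf compared with old normal libraries, with a median log2 fold change of -1.49, and rose in old normal against young normal serum, with a median of 1.75, where 26.4% and 15.6% of all 360 miRNAs were called. For old dwarf against old normal the 3 calls were lost without the 4 libraries high in miR-802-5p (log2 -1.44 to -1.36, edgeR adjusted p 0.0636 to 0.157). With the haemolysis index as a covariate they were lost in both comparisons (adjusted p 0.093 to 0.185 for old dwarf against old normal and 0.107 to 0.413 for old normal against young normal). With library totals miR-155-5p did not pass in either (0.109 and 0.053). Their sum was 667 to 1444 CPM in old dwarf, 1580 to 4964 CPM in old normal, 645 to 1426 CPM in young dwarf libraries and 611 to 1887 CPM in young normal libraries. Of the 4 platelet and myeloid miRNAs, miR-191-5p passed, lower in old dwarf against old normal serum (log2 -1.10, edgeR adjusted p 0.0337) and higher in old normal against young normal serum (log2 1.10, adjusted p 0.0465). The first of these calls was lost without the 4 libraries (adjusted p 0.279), and both with the haemolysis index as a covariate (0.465 and 0.589). That list summed to 19950 to 57459 CPM in old dwarf, 53371 to 74931 CPM in old normal, 18181 to 45344 CPM in young dwarf libraries and 20024 to 50465 CPM in young normal libraries. Of the 5 red-cell miRNAs, miR-451a passed, lower in old normal against young normal serum (log2 -0.99, edgeR adjusted p 0.0198), and it is itself part of the haemolysis index. There miR-144-3p, miR-144-5p and miR-16-5p lay lower without passing (log2 -0.69, -0.75 and -0.35). The most abundant of the 5, miR-486a-5p, lay higher without passing (log2 0.59, edgeR adjusted p 0.147). The red-cell list summed to 390370 to 581840 CPM in old normal and 230760 to 526880 CPM in young normal libraries. Of the 3 muscle miRNAs 2 were tested and 0 passed, with a median of log2 1.79 for old dwarf against old normal and -2.13 for old normal against young normal serum. In that order miR-133a-3p stood at log2 1.24 and -1.48, and miR-1a-3p at 2.35 and -2.78. The latter averaged only 0.41 CPM in old normal libraries. The muscle list, mostly miR-133a-3p, summed to 1975 to 5559 CPM in old dwarf, 314 to 3971 CPM in old normal, 1774 to 5375 CPM in young dwarf libraries and 1060 to 7554 CPM in young normal libraries. The part of these sources in the rise of miR-215-5p with age in normal mice was not tested.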
